A study of Rattus norvegicus with 120 samples.

Results

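Kidneys of rats dosed with rapamycin at 1 mg/kg for 28 days were set against kidneys of rats dosed for as long with the carrier, olive oil. The arrays were chosen by their labels alone: 6 rapamycin arrays and 5 olive oil arrays, which make 11 of the 120 arrays of the series. All rats were male Sprague-Dawley rats about 5 to 7 weeks old at the start, were injected intraperitoneally once a day, and had their kidneys taken 24 hours after the last dose. Each array held RNA of 1 rat, prepared from portions of the left and right kidneys, so every cell type of the organ was present and no cell type was sorted. The groups set beside the pair were rapamycin at 1 mg/kg after 1, 7 and 14 doses (4 rats each), rapamycin at 10 mg/kg after 28 doses (6 rats), FK506 at 0.6 mg/kg after 28 doses (6 rats), cyclosporine A (CsA) at 2.5 mg/kg after 28 doses (5 rats), and olive oil after 1, 7 and 14 doses (4 rats each). None carried a genetic change. The olive oil rats are called vehicle rats below, and all levels are log2(intensity + 16) of 1 probe set per gene.

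Rapamycin is a macrolide that binds the immunophilin FKBP12 (gene Fkbp1a). The pair then blocks mTOR complex 1, the kinase complex that couples amino acids, growth factors and energy state to protein synthesis, lipid synthesis and lysosome formation. FK506 binds the same immunophilin and CsA binds cyclophilin, but both of those complexes inhibit the phosphatase calcineurin. In the kidney, mTOR complex 1 is known for its roles in tubule and podocyte growth, in compensatory hypertrophy and in the regrowth of injured tubules.

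The arrays carried the genes that define the organ. The uromodulin gene Umod of the thick ascending limb averaged 13.80 in treated rats and 13.77 in vehicle rats, and the phosphate transporter gene Slc34a1 of the proximal tubule averaged 13.61 in treated rats and 13.72 in vehicle rats. The podocyte gene Nphs1 was measured too, at 8.15 in treated rats and 8.38 in vehicle rats. One treated rat stood apart. Replicate 4 had a mean correlation of 0.968 with the other treated rats, while the other 5 had at least 0.975 and the vehicle rats 0.980 to 0.982. In replicate 4, 235 genes lay more than 2-fold from the median of the other treated rats, against 54 to 96 genes in each other treated rat and 51 to 89 in each vehicle rat. The spiked hybridization controls, which are added to every sample and carry no kidney RNA, also differed. They read 10.61, 8.26, 9.97, 8.09, 10.19 and 10.86 in treated replicates 1 to 6, against 10.58 to 10.72 in the vehicle rats. Treated replicates 2 and 4 were thus the low arrays, and the group means were 9.66 in treated rats and 10.67 in vehicle rats. The counts of each list and comparison below are given with and without replicate 4. Genes named as rising or falling at day 28 were called in both fits unless it is said otherwise, and where entering these controls as a covariate ended the call of a gene taken by the naming rule and described as risen or fallen at day 28, that is said beside it. What lay behind the low controls was not tested.

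**Figure D1:**
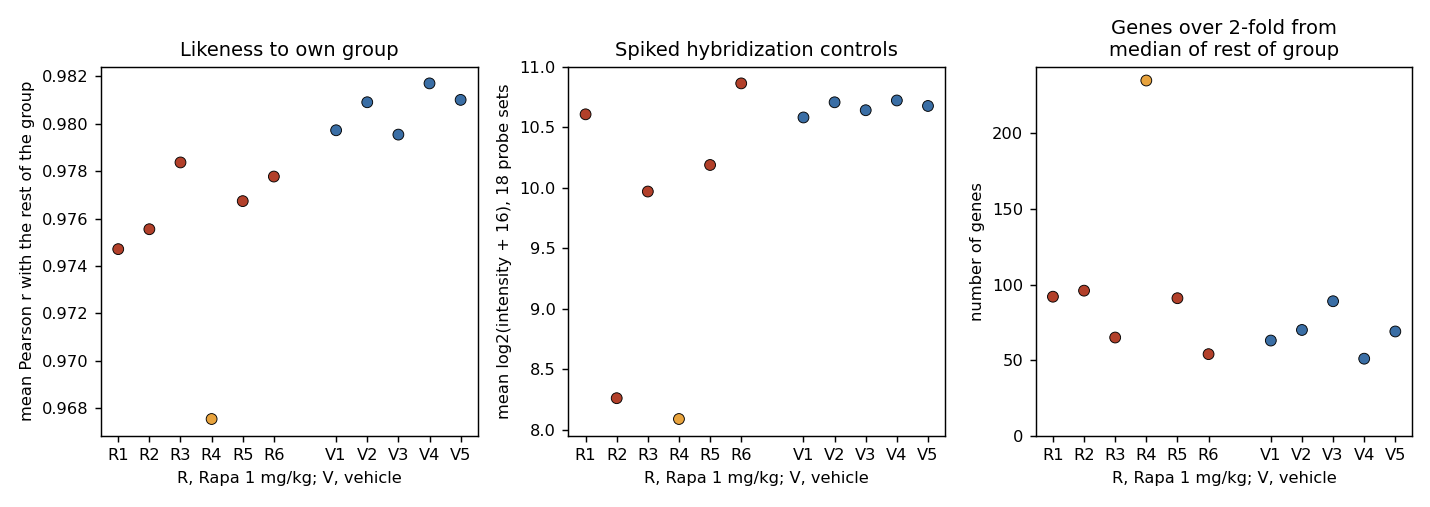
Each point is one array of day 28, with treated rats R1 to R6 left of vehicle rats V1 to V5 and treated replicate 4 in yellow. The panels give the mean Pearson correlation with the rest of the group, the mean level of the 18 hybridization control probe sets as log2(intensity + 16), and the number of genes more than 2-fold from the median of the rest of the group. Replicate 4 has the lowest correlation (0.968) and the most such genes (235), and replicates 2 and 4 have the lowest controls (8.26 and 8.09).

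After 28 doses, 1050 of the 10663 genes tested differed from vehicle (9.85%, limma, adjusted p under 0.05), 507 of them higher (4.75%) and 543 lower (5.09%) in treated rats. Most of these differences were small: 32 genes changed more than 2-fold, 12 higher and 20 lower. The median log2 change over all genes was -0.01. Without replicate 4 the counts were 382 higher (3.58%) and 373 lower (3.5%), together 755 genes (7.08%), of which 24 changed more than 2-fold. The 2 fits shared 694 genes, each with the same sign in both, which is 66.1% of the 1050. Leaving out vehicle replicate 2 gave 699 genes, 338 higher and 361 lower. With any 1 array left out, 338 to 525 genes were higher and 361 to 622 lower. A fit to these 11 arrays alone, which estimates the spread from 9 residual degrees of freedom, gave 278 genes, 114 higher and 164 lower. With the hybridization controls as a covariate the count was 563, 261 higher and 302 lower. Counts of list members given below for such settings are to be read beside these counts over all genes. In 562 genes, 5.27% of those tested, the 6 treated rats did not overlap the 5 vehicle rats. In whole kidney RNA, fewer cells of a type and less RNA per cell cannot be told apart.

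The genes described first were called with and without replicate 4, and all 6 treated rats lay on one side of the vehicle mean. Both were required in choosing them, so the shared side is not a result. Of the 694 genes called in both fits, 368 had groups that did not overlap. For genes named from these calls, here and below, lack of overlap is thus a description. The largest falls among them were in Cyp2c11, a male-specific cytochrome P450, and Ptgds. The latter is the enzyme that makes prostaglandin D2 and is secreted as a lipocalin. Ptgds read 6.74, 7.14 and 7.29 (lowest, median and highest) in treated rats, against 9.92, 10.14, 9.48, 10.10 and 9.50 in the vehicle rats. All treated rats lay more than 2 log2 units below the lowest vehicle rat. The log2 change was -2.75 (SE 0.273, limma adjusted p = 1.11e-12), a 6.74-fold lower level, and -2.77 without replicate 4. Cyp2c11 read 7.11, 7.76 and 10.02 in treated rats, against 11.07, 10.99, 11.27, 10.27 and 11.43 in the vehicle rats. The groups did not overlap, but replicate 1 at 10.02 lay close to the lowest vehicle rat. The log2 change was -2.95 (SE 0.727, adjusted p = 0.00375) and -2.76 without replicate 4, and with the hybridization controls as a covariate it was -2.38 with adjusted p = 0.058.

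Dpp7, a dipeptidyl peptidase of lysosomes and other vesicles, also fell. It read 9.29, 9.78 and 9.92 in treated rats, against 11.03, 11.41, 10.93, 11.16 and 11.20 in the vehicle rats. The groups were about 1 log2 unit apart at their nearest rats, and the change was -1.45 (SE 0.148, limma adjusted p = 2.86e-12). Apoe, the apolipoprotein that carries cholesterol between cells, read 9.53, 10.26 and 11.04 in treated rats, against 11.31, 11.66, 11.53, 11.56 and 11.58 in the vehicle rats. The vehicle rats were close together and the treated rats were spread over 1.5 log2 units, with no overlap. Its change was -1.21 (SE 0.232, adjusted p = 0.000152) and -1.35 without replicate 4.

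The other falls of at least 1 log2 unit that the naming rule took were in genes of several kinds. Ces1e, a carboxylesterase, fell by 2.10 (2.00 without replicate 4), and Cyp8b1, the sterol 12-alpha-hydroxylase of bile acid synthesis, fell by 1.64. Apcs, the serum amyloid P component, fell by 1.51. Dgkg, a diacylglycerol kinase, fell by 1.36, and by 1.54 without replicate 4, which was the treated rat nearest the vehicle rats. Gcgr, the glucagon receptor, fell by 1.30 (1.10 without replicate 4). Stra6, the receptor that takes up retinol, fell by 1.23. Col1a1, a chain of type I collagen, read 6.35, 7.26 and 7.67 in treated rats, against 8.40, 8.18, 7.95, 8.23 and 8.95 in the vehicle rats. In each of these 7 genes the groups did not overlap, as in 368 of the 694 genes called in both fits and 5.27% of all genes. Mmp9, the gelatinase of neutrophils and other cells, fell by 1.39 with overlapping groups, and its call was lost without vehicle replicate 2, at -1.06 (adjusted p = 0.075), and with the hybridization controls as a covariate (adjusted p = 0.13).

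The largest rise was that of S100a9, a calcium-binding protein of neutrophils and monocytes. It read 6.64, 7.59 and 10.88 in treated rats, against 6.11, 5.59, 6.20, 6.23 and 5.69 in the vehicle rats. All treated rats were above all vehicle rats, and replicate 4 was the highest by more than 2 log2 units. The log2 change was 2.16 (SE 0.541, limma adjusted p = 0.00431) and 1.61 without replicate 4 (adjusted p = 0.0468). In the fit to the 11 arrays alone its adjusted p was 0.069. Ccl6, a chemokine of myeloid cells, read 9.28, 9.54 and 9.82 in treated rats, against 8.59, 7.63, 8.18, 8.12 and 8.18 in the vehicle rats. The treated rats were close together and lay above every vehicle rat, with a change of 1.38 (SE 0.199, adjusted p = 4.26e-07) and the same value without replicate 4. Ccdc127, a gene of little known function, read 7.83, 8.02 and 8.29 in treated rats, against 6.54, 6.66, 6.92, 6.92 and 6.50 in the vehicle rats. These groups were also well apart, with a change of 1.31 (SE 0.187, adjusted p = 3.43e-07).

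Saa3, an inducible serum amyloid A, rose by 1.29 with overlap, since 1 of the 5 vehicle rats (6.96) lay above the lowest treated rat (6.75). Cyp26b1, which degrades retinoic acid, rose by 1.05 and Ppl, the junction protein periplakin, by 1.03. Adgrf1, an adhesion G-protein-coupled receptor, rose by 1.20, and the amino acid transporter gene Slc7a12 by 0.93. With the hybridization controls as a covariate the calls of those last 2 genes were lost, at 1.01 for Adgrf1 (limma adjusted p = 0.052) and 0.82 for Slc7a12 (adjusted p = 0.07). Cdk5rap3, a component of the protein UFMylation machinery, was raised by 1.39, but its vehicle rats were widely spread (6.94, 4.82, 5.89, 4.81 and 6.92). The treated rats read 6.85, 7.26 and 7.63. Arhgap5 rose by 1.00, and its call was lost without vehicle replicate 2 (0.98, adjusted p = 0.054) and with the hybridization controls as a covariate (adjusted p = 0.058). The call of Vcan, the proteoglycan versican, at 0.99 was lost when any of 6 arrays was left out (treated replicates 2, 5 and 6 at 0.81 to 0.99, and vehicle replicates 1, 3 and 4 at 0.83 to 0.87) and with the hybridization controls as a covariate (adjusted p = 0.061).

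**Figure D2:**
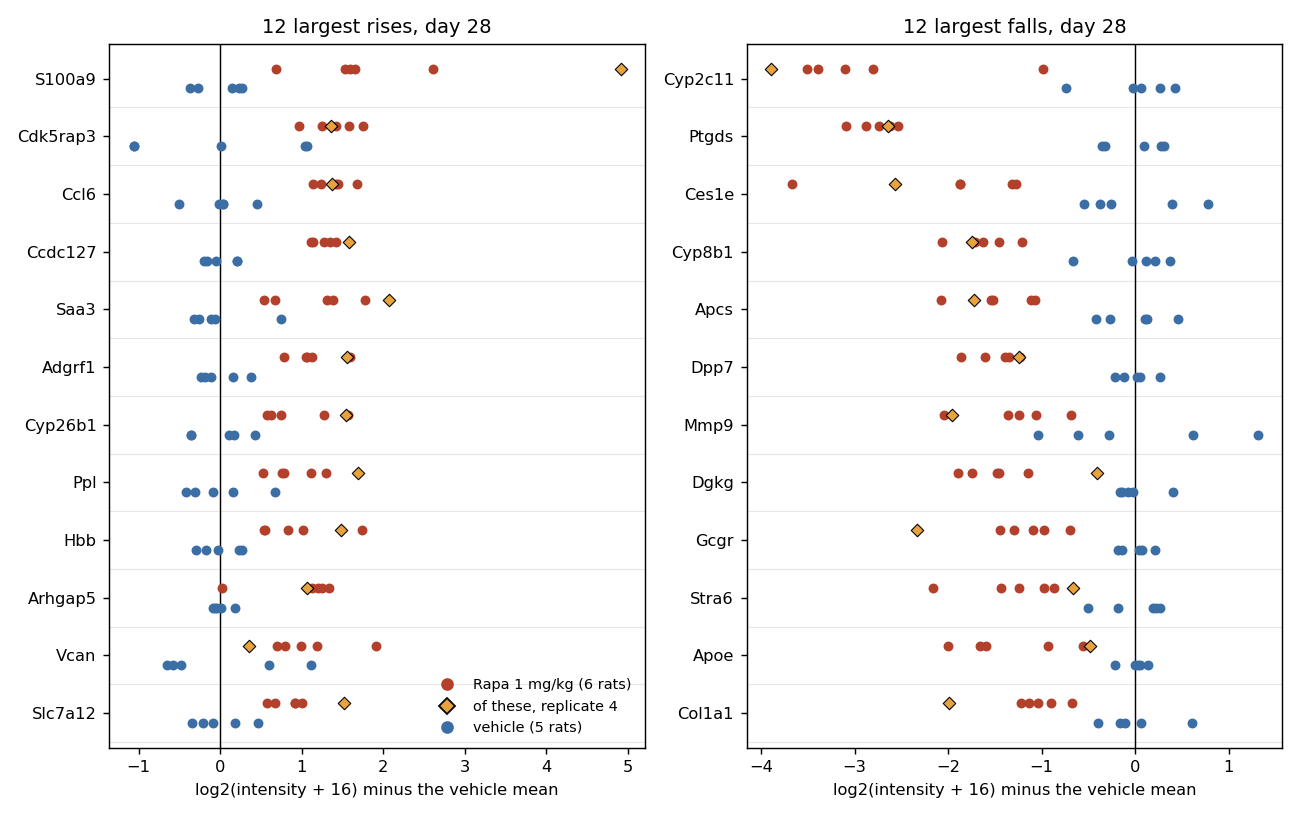
Levels of the 12 genes with the largest rises (left) and the 12 with the largest falls (right) in each rat at day 28, as log2(intensity + 16) minus the vehicle mean. In each row the upper points are the 6 treated rats (replicate 4 as a yellow diamond) and the lower points the 5 vehicle rats. In S100a9 replicate 4 lies far above the other treated rats, in Ptgds and Dpp7 all 6 treated rats lie together and apart from vehicle, and in Cdk5rap3, Saa3, Ppl, Arhgap5, Vcan and Mmp9 the groups overlap.

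Of 38 tested genes of the mTOR complexes and their regulators, 3 rose and 3 fell, with and without replicate 4, where 4.75% of all genes were higher and 5.09% lower (3.58% and 3.5% without replicate 4). The median log2 change was -0.01 in these genes. The transcript of the kinase itself, Mtor, read 8.65, 8.84 and 8.87 in treated rats, against 8.63 to 9.01 in vehicle rats, and differed by 0.03 (SE 0.064, limma adjusted p = 0.86). Rptor and Rictor, the scaffolds of the complexes, differed by -0.11 and 0.13 and were not called. Prr5, a subunit of mTOR complex 2, read 7.91, 8.22 and 8.38 in treated rats, against 8.64, 8.95, 8.71, 8.73 and 8.76 in the vehicle rats. Grb10, an adaptor that mTOR complex 1 phosphorylates and that restrains insulin signalling, read 8.08, 8.29 and 8.33 in treated rats, against 8.69, 8.95, 8.59, 8.74 and 8.80 in the vehicle rats. Neither gene's groups overlapped, and the falls were 0.56 (SE 0.107, adjusted p = 0.000121) and 0.51 (SE 0.095, adjusted p = 9.6e-05). Akt1, the kinase upstream of the complex, rose by 0.32, and Eif4ebp2, a translation repressor that the complex phosphorylates, rose by 0.32. The other 2 called members, named after their values were seen, were Rps6 (0.24) and Pdpk1 (-0.23). In the fit to the 11 arrays alone, 2 members were called lower and none higher, where 164 of all 10663 genes were lower and 114 higher.

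Immunophilins are the cellular binding proteins of these drugs. Of 18 tested genes, 1 rose and 2 fell with all 6 treated rats, where 4.75% of all genes were higher and 5.09% lower. Fkbp9 rose by 0.32. Fkbp11 (-0.39) and Fkbp3 (-0.23), named after their values were seen, were called lower with all 6 treated rats but not without replicate 4. With the hybridization controls as a covariate no immunophilin gene was called, where 563 of all 10663 genes were. The drug's binding partner Fkbp1a differed by -0.02 (SE 0.083, limma adjusted p = 0.913). The list's median was -0.07, and it had 1 fall without treated replicate 2 or vehicle replicates 2, 4 or 5.

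Genes for the protein synthesis machinery rose together. Of 37 tested ribosomal protein and translation factor genes, 26 rose and none fell (4.75% and 5.09% over all genes), with a median change of 0.20. Without replicate 4, 22 rose. The count was 20 without vehicle replicate 2, 17 with the hybridization controls as a covariate and 4 in the fit to the 11 arrays alone. The mean level of the 37 genes was 12.57 to 12.73 in treated rats and 12.39 to 12.51 in vehicle rats. Rps15a, of the small ribosomal subunit, read 12.35, 12.55 and 12.64 in treated rats, against 12.17, 11.99, 12.01, 12.15 and 12.14 in the vehicle rats, without overlap. It rose by 0.43 (SE 0.075, limma adjusted p = 2.18e-05). Rpl4, of the large subunit, rose by 0.33, and Eef1b2, the exchange factor of elongation factor 1, by 0.30, both without overlap. Rps3 rose by 0.33 with overlap, and its call was lost with the hybridization controls as a covariate (0.26, adjusted p = 0.064).

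Many of these transcripts begin with a pyrimidine tract, the element through which mTOR complex 1 governs their translation, so the start of the 4 named genes is shown (RefSeq, build GRCr8, 15 bases either side of the annotated start, the letters of runs of at least 7 C or T in capitals, also where part of a run lies outside the window shown, as in the first runs of Rps3 and Eef1b2).
Rps15a, chr1:181860270-181860299, minus strand: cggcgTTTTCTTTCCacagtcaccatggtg
Rps3, chr1:163195762-163195791, minus strand: TTCCTTTCagcggcgcgcggcagcaagatg
Rpl4, chr8:73566462-73566491, plus strand: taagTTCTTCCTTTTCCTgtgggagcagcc
Eef1b2, chr9:72074076-72074105, plus strand: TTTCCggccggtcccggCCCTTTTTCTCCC
The run of Rps3 ends 7 bases before the annotated start. A run of at least 7 pyrimidines that reached within 3 bases of the annotated start was present in 14 of the 24 called genes with a sequence (58.3%), in 3 of 9 that were not called (33.3%), and in 2671 of 27457 genes of the promoter table (9.73%). Of the 4 genes shown, Rps3 does not meet this rule. The match is a description of the sequence at the annotated start, which may differ from the start used in kidney.

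Of 37 genes of ribosome biogenesis and the nucleolus, 2 rose with all 6 treated rats, where 4.75% of all genes were higher. None rose without replicate 4, where 3.58% of all genes did, and the median change was -0.01 with all 6 treated rats. Myc, the transcription factor that drives ribosome production, read 6.52, 6.65 and 7.19 in treated rats, against 6.56, 5.83, 5.69, 5.83 and 6.44 in the vehicle rats. It rose by 0.67 (limma adjusted p = 0.027), a call lost without treated replicates 3 or 4 (0.64 and 0.58) or vehicle replicates 2, 3 or 4 (0.58 to 0.61) and with the hybridization controls as a covariate (adjusted p = 0.13). Pes1 rose by 0.25, and by 0.24 without replicate 4 it was not called (adjusted p = 0.079). It was named after its values were seen. No gene of the list was called without treated replicate 3 or vehicle replicate 2. Polr1b, a subunit of RNA polymerase I, differed by -0.29 (adjusted p = 0.264).

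Of 30 tested genes of fatty acid oxidation and PPAR-alpha, 13 fell and 1 rose, where 4.75% of all genes were higher and 5.09% lower, and the list's median was -0.25. Without replicate 4, 8 fell and none rose, with a median of -0.20. The mean level of the list was 10.64 to 10.92 in treated rats and 10.96 to 11.07 in vehicle rats. Cyp4a1, which hydroxylates fatty acids, read 10.52, 11.03 and 11.05 in treated rats, against 11.62, 11.98, 11.64, 11.92 and 11.69 in the vehicle rats. Every treated rat was below every vehicle rat, and the change was -0.85 (SE 0.161, limma adjusted p = 0.000113). Ehhadh, the bifunctional enzyme of peroxisomal beta-oxidation, fell by 0.68. Eci1, an enoyl-CoA isomerase of mitochondria, fell by 0.61 and Acot2, a mitochondrial acyl-CoA thioesterase, by 0.45, all without overlap. The rising member, named after its values were seen, was Cd36, a fatty acid transporter, at 0.51, which was not called without replicate 4 (0.46, adjusted p = 0.079). With the hybridization controls as a covariate 8 members fell, and in the fit to the 11 arrays alone 4 did. Over all 10663 genes, 302 and 164 were lower in those fits.

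Of 21 cholesterol synthesis genes, 2 fell, where 5.09% of all genes were lower. Idi1, the isopentenyl diphosphate isomerase, fell by 0.54 and Sqle, squalene epoxidase, by 0.62. The Sqle call was lost without treated replicates 5 or 6 (-0.56 and -0.52) or vehicle replicates 3 or 4 (-0.57 and -0.51). Cyp51, named after its values were seen, was called only without replicate 4 (-0.35, limma adjusted p = 0.04). The median of the list was -0.13 with all 6 treated rats and -0.16 without replicate 4.

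In glucose metabolism, 5 of 30 genes fell and 1 rose (6 and 1 without replicate 4), with a median of -0.06. Over all genes, 5.09% were lower and 4.75% higher. Pklr, the pyruvate kinase of liver and proximal tubule, fell by 0.82 with overlapping groups (0.69 without replicate 4), and Pc, pyruvate carboxylase, fell by 0.68 without overlap (9.34, 9.97 and 10.12 in treated rats, against 10.71, 10.71, 10.58, 10.48 and 10.40 in the vehicle rats). Gpi, the glucose phosphate isomerase, fell by 0.29. Slc2a1, the glucose transporter GLUT1, rose by 0.39, a call lost without vehicle replicate 2 (0.30, limma adjusted p = 0.079) and with the hybridization controls as a covariate (0.28, adjusted p = 0.14). The other 2 falls, named after their values were seen, were in Pgam1 (-0.16) and in the sodium glucose transporter gene Slc5a1 (-0.65), which was not called without replicate 4 (-0.54, adjusted p = 0.065). Of 50 respiratory chain genes, 9 fell and none rose with all 6 treated rats and 5 fell without replicate 4, with medians of -0.05 and -0.04. The named falls were small and all in subunits of complex I: 0.24 for Ndufb2, 0.21 for Ndufb6, 0.19 for Ndufs6 and 0.17 for Ndufb9. No respiratory chain gene was called in the fit to the 11 arrays alone, where 278 of all 10663 genes were.

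Among 43 lysosome and autophagy genes, 7 fell and 4 rose, where 4.75% of all genes were higher and 5.09% lower, and the list's median was -0.02. The 4 rises were lost without replicate 4, when 8 members fell, and 2 of them without vehicle replicates 2 or 4. Ctsa, the protective protein cathepsin A, read 12.33, 12.52 and 12.71 in treated rats, against 13.05, 13.26, 13.17, 13.15 and 13.16 in the vehicle rats. Hexa, the alpha subunit of hexosaminidase, read 10.89, 10.96 and 11.07 in treated rats, against 11.40, 11.63, 11.36, 11.38 and 11.54 in the vehicle rats. Both pairs of groups were well apart, with falls of 0.63 (SE 0.080, limma adjusted p = 8.05e-09) and 0.50 (SE 0.067, adjusted p = 5.09e-08). Glb1, the lysosomal beta-galactosidase, fell by 0.50 and Mcoln1, the lysosomal calcium channel, by 0.49, both without overlap. The rising members, named after their values were seen, were Ctsd (0.43), Ctsf (0.33), Gabarapl1 (0.32) and Ctsl (0.21).

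The letters CACGTG, the core of the element read by TFEB, which mTOR complex 1 keeps in the cytoplasm, were looked for in the 250 bases before the start of these genes. The letters were present before 2 of the 5 lysosome genes called lower with a sequence (40.0%), 2 of the 4 called higher (50.0%), 5 of the 27 not called (18.5%) and 5.77% of all genes. The windows before Glb1 and Mcoln1 are shown (RefSeq, GRCr8, the match in capitals, which reads the same on both strands).
Glb1, chr8:122963606-122963635, plus strand: cggctccggagtCACGTGgcctgcagaggc
Mcoln1, chr12:6358224-6358253, plus strand: cgtcaagcttgtCACGTGttcgacccaggc
The match began 100 bases before the start of Glb1 and 22 bases before that of Mcoln1.

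Of 36 genes of the amino acid stress and unfolded protein responses, 6 fell and 2 rose (4 and 1 without replicate 4), with a median of -0.05. Over all genes, 5.09% were lower and 4.75% higher. Chaperones of the endoplasmic reticulum were among the falls. Hspa5, the chaperone BiP, read 11.13, 11.46 and 12.04 in treated rats, against 11.96, 12.03, 11.81, 12.32 and 12.15 in the vehicle rats, with some overlap, and fell by 0.56. Sdf2l1, a partner of BiP, fell by 0.67 without overlap. Vldlr, the very low density lipoprotein receptor, read 7.29, 7.42 and 7.62 in treated rats, against 8.21, 8.04, 8.05, 8.19 and 8.45 in the vehicle rats, and fell by 0.76 (SE 0.101, limma adjusted p = 5.05e-08). Atf4, the transcription factor of the amino acid response, rose by 0.33, a call lost with the hybridization controls as a covariate (0.24, adjusted p = 0.13).

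Of 49 tested cell cycle genes, 6 fell, 2 rose and 41 were not called, where 4.75% of all genes were higher and 5.09% lower. The list's median was -0.11. Without replicate 4, 4 fell and 2 rose, with a median of -0.15. Cks2, a subunit of cyclin-dependent kinases, read 6.29, 6.60 and 6.92 in treated rats, against 7.42, 7.65, 7.38, 7.90 and 7.40 in the vehicle rats. The groups did not overlap, and the change was -0.93 (SE 0.197, limma adjusted p = 0.000646). Cdkn3, a phosphatase of those kinases, fell by 0.96, Kif20a, a mitotic kinesin, by 0.94, and Ccnb2, cyclin B2, by 0.78. These 3 calls were each lost without 1 vehicle rat, that is without replicate 4 of the vehicle rats for Cdkn3 (-0.79) and Ccnb2 (-0.63), and without replicate 5 of the vehicle rats for Kif20a (-0.83). Without vehicle replicate 4 the list had 3 falls, and without vehicle replicates 2 or 5 it had 4 falls each. With the hybridization controls as a covariate it had 2 falls, and the calls of Kif20a and Ccnb2 were lost (adjusted p = 0.067 and 0.0515). Over all 10663 genes, 450, 361 and 439 were lower without vehicle replicates 4, 2 and 5, and 302 with the covariate. The rising members were named after their values were seen. Mcm7, a subunit of the replication helicase, read 8.76, 9.01 and 9.23 in treated rats, against 8.24 to 8.49 in vehicle rats, and rose by 0.64 (adjusted p = 6.26e-06), and Cdkn1c, the inhibitor p57, rose by 0.49.

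Promoters of mitotic genes often carry several CCAAT boxes, so the 250 bases before the start of 3 of these genes are shown. They are from RefSeq, GRCr8, with CCAAT or its reverse complement ATTGG in capitals.
Cdkn3, chr15:22502136-22502385, plus strand: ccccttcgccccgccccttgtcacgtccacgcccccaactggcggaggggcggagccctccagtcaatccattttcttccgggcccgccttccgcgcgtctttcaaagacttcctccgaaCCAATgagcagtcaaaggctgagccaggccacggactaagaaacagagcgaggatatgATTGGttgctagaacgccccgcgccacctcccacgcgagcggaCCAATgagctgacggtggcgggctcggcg
Cks2, chr17:13727520-13727769, minus strand: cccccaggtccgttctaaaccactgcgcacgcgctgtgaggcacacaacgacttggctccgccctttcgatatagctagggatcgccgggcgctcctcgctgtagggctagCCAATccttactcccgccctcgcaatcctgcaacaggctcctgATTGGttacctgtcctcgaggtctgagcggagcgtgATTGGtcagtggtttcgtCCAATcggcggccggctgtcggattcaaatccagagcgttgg
Ccnb2, chr8:79981659-79981908, minus strand: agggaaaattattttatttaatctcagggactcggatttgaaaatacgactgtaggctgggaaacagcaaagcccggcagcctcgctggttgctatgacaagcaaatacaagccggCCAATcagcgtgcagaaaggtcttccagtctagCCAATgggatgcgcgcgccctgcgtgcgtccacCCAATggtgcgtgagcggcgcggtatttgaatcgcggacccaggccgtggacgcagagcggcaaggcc
At least 3 matches on either strand were found before 4 of the 6 cell cycle genes called lower (66.7%), 12 of the 35 not called (34.3%) and 2.73% of all genes of the table. At least 1 match was found before 34.2% of all genes.

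Of 63 proximal tubule genes, 13 fell and 2 rose, where 4.75% of all genes were higher and 5.09% lower, and the list's median was -0.12. Without replicate 4, 7 fell and 2 rose, with the same median. The mean level of the list was 11.17 to 11.34 in treated rats and 11.40 to 11.48 in vehicle rats. Cyp2e1, a cytochrome P450 of this segment, read 11.44, 12.03 and 12.34 in treated rats, against 12.77, 12.74, 12.70, 12.46 and 12.90 in the vehicle rats, and fell by 0.77. Slc22a5, the carnitine transporter OCTN2, read 10.77, 11.04 and 11.20 in treated rats, against 11.75, 11.71, 11.71, 11.57 and 11.82 in the vehicle rats, and fell by 0.68 (SE 0.116, limma adjusted p = 1.67e-05). Amn, the partner of cubilin in protein uptake, fell by 0.56. None of these 3 had overlapping groups. Slc13a1, the sulphate transporter, rose by 0.69, a call lost without treated replicates 2 or 3 (0.60 and 0.62) or vehicle replicates 1 or 3 (0.57 and 0.66) and with the hybridization controls as a covariate (adjusted p = 0.059). Glyatl2 also rose by 0.67, but not without replicate 4 (0.54, adjusted p = 0.072). It was named after its values were seen. With the hybridization controls as a covariate, 7 members fell and none rose, where 302 of all 10663 genes were lower and 261 higher.

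Of 25 genes of collecting duct principal cells, 6 rose and none fell, where 4.75% of all genes were higher and 5.09% lower, and the list's median was 0.22. Without replicate 4, 4 rose, with a median of 0.19. The mean level was 9.20 to 9.36 in treated rats and 8.89 to 9.10 in vehicle rats. Scnn1a, the alpha subunit of the epithelial sodium channel, read 8.27, 8.72 and 9.33 in treated rats, against 8.32, 7.96, 8.01, 7.89 and 8.24 in the vehicle rats, and rose by 0.66 (limma adjusted p = 0.00222). The call was lost with the hybridization controls as a covariate (0.50, adjusted p = 0.059). Scnn1g, the gamma subunit, rose by 0.39 and Hsd11b2, the enzyme that keeps glucocorticoids off the mineralocorticoid receptor, by 0.42, but each of these calls was lost when any of several arrays was left out. Scnn1g ranged from 0.28 (without vehicle replicate 3) to 0.40 (without vehicle replicate 1) over the 7 that did so, which also took in treated replicates 1, 3 and 5 and vehicle replicates 2 and 4. Hsd11b2 ranged from 0.33 (without treated replicate 5) to 0.42 over the 8 that did so, which also took in treated replicates 1 to 3 and vehicle replicates 1 to 4, and its call was lost with the hybridization controls as a covariate (0.46, adjusted p = 0.063). Hsd17b11 rose by 0.34. Aqp2, the water channel of these cells, differed by 0.16 (SE 0.225, adjusted p = 0.748). The count of rises was 2 without treated replicate 5 or vehicle replicate 2, 3 without vehicle replicates 1, 3 or 4, 4 without treated replicates 1 or 3, and 2 with the hybridization controls as a covariate. Over all 10663 genes, 447 were higher without treated replicate 5, 338 without vehicle replicate 2 and 261 with the covariate.

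None of 21 thick ascending limb genes was called with all 6 treated rats (limma), and 1 was called without replicate 4, Irx2 at 0.45 (0.36 with it, adjusted p = 0.0713). Umod differed by 0.03 (adjusted p = 0.851) and Ppp1r1b, a phosphatase inhibitor, by 0.45 (adjusted p = 0.171). Of 20 genes of the distal convoluted tubule, 3 rose and 1 fell, where 4.75% of all genes were higher and 5.09% lower, and without replicate 4, 2 rose. S100g, the calcium-binding protein calbindin-D9k, read 7.73, 8.49 and 8.72 in treated rats, against 7.70, 7.74, 7.60, 7.35 and 7.32 in the vehicle rats. Only the lowest treated rat reached the vehicle range, and the change was 0.86 (SE 0.150, adjusted p = 2.72e-05), or 0.99 without replicate 4. Cul3, a ubiquitin ligase scaffold, rose by 0.15. The others, named after their values were seen, were Trpv5, the apical calcium channel (0.63), and Fxyd2, a sodium pump subunit (-0.14), neither called without replicate 4 (0.48 and -0.12). The fall was also lost without treated replicates 1, 5 or 6 or any 1 vehicle rat. Of 16 intercalated cell genes, Slc26a4, the chloride bicarbonate exchanger pendrin, fell by 0.78 (9.01 as the median of treated rats, against 9.56, 10.11, 9.76, 9.26 and 10.24 in the vehicle rats), and Dmrt2, a transcription factor, rose by 0.43. The Dmrt2 call was lost without vehicle replicate 3 (0.33, adjusted p = 0.081) and with the hybridization controls as a covariate (adjusted p = 0.11), and the list had 2 falls without vehicle replicate 4 and 2 rises without vehicle replicate 5.

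**Figure D3:**
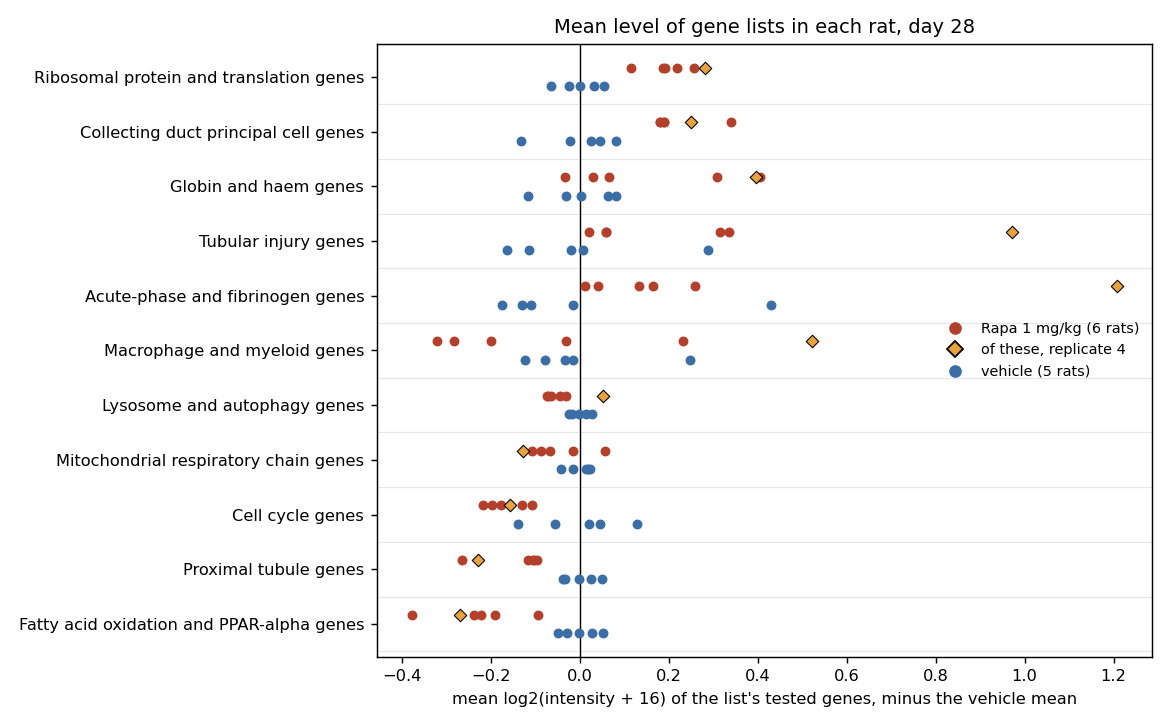
Mean level of 11 gene lists in each rat at day 28, as the mean log2(intensity + 16) of the list's tested genes minus the vehicle mean. In each row the upper points are the 6 treated rats (replicate 4 as a yellow diamond) and the lower points the 5 vehicle rats. The groups do not overlap for translation, principal cell, proximal tubule and fatty acid oxidation genes. Replicate 4 lies highest of all rats for tubular injury, acute-phase and macrophage genes, and by less for translation and lysosome genes.

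Most calls among genes that mark injured tubules were lost without replicate 4. Of 37 tested genes, 9 rose and 3 fell with all 6 treated rats, where 4.75% of all genes were higher and 5.09% lower, and the list's median was 0.31. Without replicate 4, 1 rose and 1 fell, with a median of 0.22. In replicate 4, 24 of the 37 genes were the highest of the 6 treated rats, as were 20.6% of all genes. The summed intensity of the list was 67350 in replicate 4, and over all rats it was 44050 to 67350 in treated rats and 37450 to 43890 in vehicle rats. The count of rises was also 2 without vehicle replicate 2, 5 without treated replicate 5, 6 without vehicle replicate 1, and 1 with the hybridization controls as a covariate. Over all 10663 genes, 338, 447, 425 and 261 were higher in those settings. The count of falls was 1 without vehicle replicates 3, 4 or 5. The member that rose with and without replicate 4 was S100a6, a calcium-binding protein, at 9.28, 9.52 and 10.21 in treated rats, against 9.02, 8.96, 9.24, 8.94 and 8.85 in the vehicle rats, a change of 0.68 (0.57 without replicate 4). The member that fell in both was Mdk, the growth factor midkine, by 0.83. Lcn2, the injury marker lipocalin NGAL, rose by 1.34 (limma adjusted p = 0.0385) and was not called without replicate 4 (0.77, adjusted p = 0.3), without treated replicate 5 (1.36), without vehicle replicates 1, 2 or 5 (1.28, 1.30 and 1.20) or with the hybridization controls as a covariate (0.95, adjusted p = 0.28). Spp1, osteopontin, changed by 0.98 and Clu, clusterin, by 0.78 with replicate 4 (0.70 and 0.56 without it, neither called). These 2 were named after their values were seen.

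Replicate 4 held several injury and acute-phase genes far above the rest. Havcr1, the injury marker KIM-1, read 10.67 in replicate 4, while the other treated rats read 5.86 to 8.17 and the vehicle rats 6.03, 5.22, 5.93, 6.15 and 6.84. It was not called with replicate 4 (1.30, limma adjusted p = 0.061) or without it (0.64, adjusted p = 0.44). Serpina3n, an acute-phase protease inhibitor, read 10.93 in replicate 4 and 5.59 to 7.67 in the other treated rats, and Cxcl13, a chemokine that attracts B cells, read 11.05 in replicate 4 and 5.95 to 7.95 in the other treated rats. Lcn2 and S100a9 were 3.36 and 3.33 above the median of the other treated rats in replicate 4. Fgb, the beta chain of fibrinogen, was 2.75 above it, Eif4ebp3, a translation repressor, 2.66 above it, and Sds, serine dehydratase, 2.61 above it. The genes farthest below that median in this rat were Tm4sf20 (-3.25), the organic anion transporter gene Slco1a1 (-3.21), Poteml2 (-3.01), Pcdh9 (-2.90), Dmrtc1c1 (-2.75), Rdh16 (-2.60), the prolactin receptor gene Prlr (-2.60) and Gc, the vitamin D binding protein (-2.30). Slco1a1 read 8.60 in replicate 4, 11.69 to 12.04 in the other treated rats, and 11.79, 11.74, 11.77, 11.78 and 11.44 in the vehicle rats. These 16 genes were picked for their distance from the other treated rats, so their distance is a description. Of the 16, S100a9, Lcn2 and Prlr were called with all 6 treated rats, and of these only S100a9 was called without replicate 4.

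**Figure D4:**
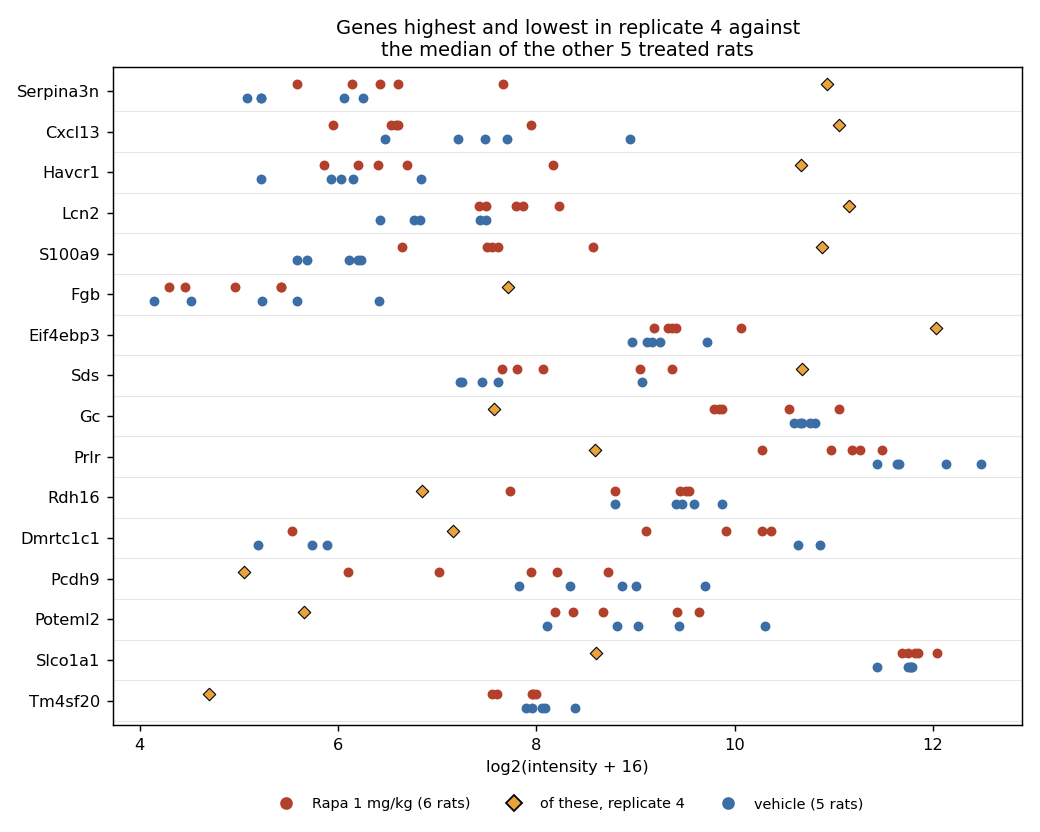
Levels, as log2(intensity + 16), of the 8 genes highest and the 8 genes lowest in treated replicate 4 against the median of the other 5 treated rats, in each rat at day 28. In each row the upper points are the treated rats (replicate 4 as a yellow diamond) and the lower points the vehicle rats. Havcr1 reads 10.67 in replicate 4 and at most 8.17 in any other rat, and Slco1a1 reads 8.60 in replicate 4 and at least 11.44 in any other rat.

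Over all genes, 4.75% were higher and 5.09% lower. Of 15 acute-phase genes, 2 rose and 1 fell, and without replicate 4 only the fall of Apcs was called. The 2 rises, named after their values were seen, were Lcn2 and Cp, ceruloplasmin (0.47, and 0.45 with limma adjusted p = 0.068 without replicate 4). No acute-phase gene rose without treated replicate 5 or vehicle replicate 2, and 1 did without treated replicate 6 or vehicle replicates 1, 4 or 5. Of 11 tested neutrophil genes, S100a9 and Lcn2 rose and Mmp9 fell, the Lcn2 call being lost without replicate 4. The neutrophil list had 2 falls without treated replicates 1 or 6 or vehicle replicate 5. Of 27 macrophage genes, 2 rose and 1 fell. Lyz2, a lysozyme (0.43), and Cd14, the endotoxin co-receptor (0.61), were not called without replicate 4 (0.31 and 0.49), nor was Cd14 with the hybridization controls as a covariate (0.47, adjusted p = 0.093). Mpeg1, the macrophage pore protein perforin-2, fell by 0.54, a call lost without treated replicates 2, 3 or 6 (-0.41, -0.44 and -0.51) or vehicle replicates 2, 4 or 5 (-0.51, -0.54 and -0.52) and with the hybridization controls as a covariate (adjusted p = 0.066). The macrophage list had 1 rise without vehicle replicate 3 and 2 falls without treated replicate 5. In replicate 4, 17 of the 27 macrophage genes were the highest of the 6 treated rats, as were 20.6% of all genes. Of 16 genes of T, B and natural killer cells, 2 fell, Gzmk, granzyme K, by 0.59 and Il2rb, an interleukin 2 receptor chain, by 0.41. Il2rb was not called without replicate 4 (-0.43, adjusted p = 0.054) and was named after its values were seen, as were Lyz2 and Cd14. The lymphocyte list had 1 fall without treated replicates 2, 3 or 5 or vehicle replicates 1, 2, 4 or 5.

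Of 43 tested genes of interstitial collagen and fibroblasts, 6 fell and 3 rose (4 and 3 without replicate 4), where 4.75% of all genes were higher and 5.09% lower, and the median was -0.05 with and 0.03 without replicate 4. Col3a1, type III collagen, read 8.07, 9.27 and 9.86 in treated rats, against 10.41, 9.84, 9.96, 10.22 and 10.20 in the vehicle rats, and fell by 0.96 (0.74 without replicate 4). Dcn, the proteoglycan decorin, read 11.27, 11.56 and 11.98 in treated rats, against 10.96, 10.47, 11.00, 10.69 and 10.99 in the vehicle rats, and rose by 0.77 (SE 0.184, limma adjusted p = 0.00258). Loxl1, a lysyl oxidase, rose by 0.69, a call lost without treated replicate 5 (0.53, adjusted p = 0.071) and with the hybridization controls as a covariate (0.61, adjusted p = 0.074). Mgp, matrix Gla protein, named after its values were seen, rose by 0.58 without overlap (12.38 to 12.94 in treated rats and 11.88 to 12.37 in vehicle rats). The list had 4 falls without vehicle replicate 1 and 2 rises without treated replicate 5.

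Of 13 tested globin and haem genes, 4 rose and none fell, with and without replicate 4, where 4.75% of all genes were higher and 5.09% lower. The list's mean level was 8.92 to 9.36 in treated rats and 8.84 to 9.03 in vehicle rats, with overlap. Hbb, the beta globin, read 12.04, 12.43 and 13.24 in treated rats, against 11.20, 11.77, 11.33, 11.74 and 11.48 in the vehicle rats, and rose by 1.03 (SE 0.251, limma adjusted p = 0.00342). Bpgm, which makes the red cell's bisphosphoglycerate, rose by 0.32 and Slc25a37, the mitochondrial iron importer mitoferrin, by 0.37. The Bpgm call was lost without treated replicate 6 (0.25) or vehicle replicate 4 (0.29), and that of Slc25a37 without vehicle replicates 1 or 2 (0.28 and 0.33). Both were also lost with the hybridization controls as a covariate (adjusted p = 0.051 for Bpgm and 0.054 for Slc25a37). The other rise, named after its values were seen, was in Alas2, the first enzyme of haem synthesis in red cells, at 0.94, which was not called without replicate 4 (0.75, adjusted p = 0.088), when Gypc was (0.47). The list had 2 rises without treated replicate 6. Its summed intensity was 13170 to 19230 in treated rats and 11280 to 13050 in vehicle rats, and the share of blood left in the tissue was not measured.

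Sex-dimorphic and hormone-dependent genes were represented by Cyp2c11, above, and by Odc1, ornithine decarboxylase, an androgen-responsive gene of rodent kidney. Odc1 read 12.66, 12.80 and 13.10 in treated rats, against 12.02, 11.79, 12.50, 12.07 and 12.18 in the vehicle rats, and rose by 0.73 (SE 0.140, limma adjusted p = 0.000152). Gusb, beta-glucuronidase, fell by 0.47, also without overlap. Of 25 tested genes of this list, 1 rose and 3 fell, where 4.75% of all genes were higher and 5.09% lower. The third fall was that of Prlr, by 1.24. It was not called without replicate 4 (-0.84, adjusted p = 0.075) or with the hybridization controls as a covariate (-0.98, adjusted p = 0.078). Markers of liver overlapped between the groups. Of 15 tested liver genes 1 was called, Cyp2c11, and their summed intensity was 2283 to 5016 in treated rats and 3415 to 8575 in vehicle rats. Alb read 5.12 to 8.41 in treated rats and 4.91 to 10.69 in vehicle rats. Of the 24 lists not described here, none had more than 5 genes higher or 3 lower, and their medians ran from -0.24 to 0.14.

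Few genes were called between the 2 doses. Between rapamycin at 1 mg/kg and at 10 mg/kg, 13 of 10663 genes differed (0.122%, limma), 9 higher (0.0844%) and 4 lower (0.0375%) at 1 mg/kg, while 902 genes had an unadjusted p under 0.05. The count was 5 without replicate 4 (0.0469%), and it was 32, 0, 0, 24 and 0 when treated replicates 1, 2, 3, 5 and 6 were left out in turn. Dhcr7, the last enzyme of cholesterol synthesis, averaged 10.12 at 1 mg/kg, 9.26 at 10 mg/kg and 10.13 in vehicle rats, a difference between the doses of 0.87 (adjusted p = 0.0346) that was 0.84 without replicate 4 (adjusted p = 0.038). Nefm, a neurofilament, averaged 7.26 at 1 mg/kg, 6.21 at 10 mg/kg and 7.94 in vehicle rats. Kit, the stem cell factor receptor, averaged 6.24 at 1 mg/kg, 5.39 at 10 mg/kg and 6.06 in vehicle rats. Slc17a5, the lysosomal sialic acid exporter, differed by 0.38 between the doses. On the other side, Hsph1, a heat shock protein, averaged 10.11 at 1 mg/kg, 10.70 at 10 mg/kg and 10.44 in vehicle rats, and Prepl, Tdrd7 and Pum2 differed by -0.39, -0.32 and -0.25. Of these 8, Dhcr7 was the one called without replicate 4.

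Against the same 5 vehicle rats, rapamycin at 10 mg/kg gave 1677 called genes (15.7%), 807 higher (7.57%) and 870 lower (8.16%). Because the vehicle rats are shared, the values are set side by side and their likeness is not a result. Ptgds changed by -2.75 at 1 mg/kg and -2.58 at 10 mg/kg, Dpp7 by -1.45 and -1.46, and Apoe by -1.21 and -1.04 in the same order of doses. Cyp2c11 changed by -2.95 at 1 mg/kg and -4.26 at 10 mg/kg, with an adjusted p of 0.62 for the difference of the doses (limma). Of the lists, translation genes had 26 rises at 1 mg/kg and 32 at 10 mg/kg. Fatty acid oxidation genes had 13 falls at each dose, proximal tubule genes 13 and 18 falls, cell cycle genes 6 and 11 falls, and cholesterol synthesis genes 2 and 6 falls, again with the lower dose first.

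Over time at 1 mg/kg, each day against its own vehicle rats, 328 genes were called after 1 dose (3.08%), 450 after 7 (4.22%), 965 after 14 (9.05%) and 1050 after 28 (9.85%). The early groups had 4 rats each, so these counts do not compare the days. With the ratio of 3-prime to 5-prime Gapdh signal as a covariate, they were 48 after 1 dose, 224 after 7, 903 after 14 and 1027 after 28. Ptgds changed by -0.59 after 1 dose, -1.08 after 7, -2.34 after 14 and -2.75 after 28, and the effect at day 28 was lower than that at day 7 by 1.67 (limma adjusted p = 0.0436, and 0.061 without replicate 4). Dpp7 changed by -0.29, -1.36, -1.81 and -1.45 after 1, 7, 14 and 28 doses, and Apoe by -0.40, -1.08, -1.31 and -1.21. S100g changed by 0.40, 0.98, 1.12 and 0.86. Hbb changed by -0.05, -0.61, 0.36 and 1.03, and its effect at day 28 exceeded that at day 7 by 1.64 (adjusted p = 0.0306, and 0.061 without replicate 4).

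The cell cycle list had 2 genes lower after 1 dose, 22 after 7, 14 after 14 and 6 after 28, of 49, where 1.11%, 2.61%, 4.97% and 5.09% of all genes were lower on those days. Ccnb2 changed by -0.08, -1.72, -1.37 and -0.78 over the 4 days, and Cdkn3 by -0.44, -1.75, -1.18 and -0.96. The differences of day 28 from day 7 were 0.94 for Ccnb2 and 0.79 for Cdkn3 and were not called (limma adjusted p = 0.189 and 0.443). Translation genes higher numbered 2, 5, 16 and 26 of 37 over the 4 days, against 1.97%, 1.61%, 4.08% and 4.75% of all genes. Fatty acid oxidation genes lower numbered 2, 9, 10 and 13 of 30. Macrophage genes lower numbered 4 after 7 doses, 9 after 14 and 1 after 28, of 27. All these list counts are from the fit without the Gapdh ratio, which differed between the groups of days 1 and 7.

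**Figure D5:**
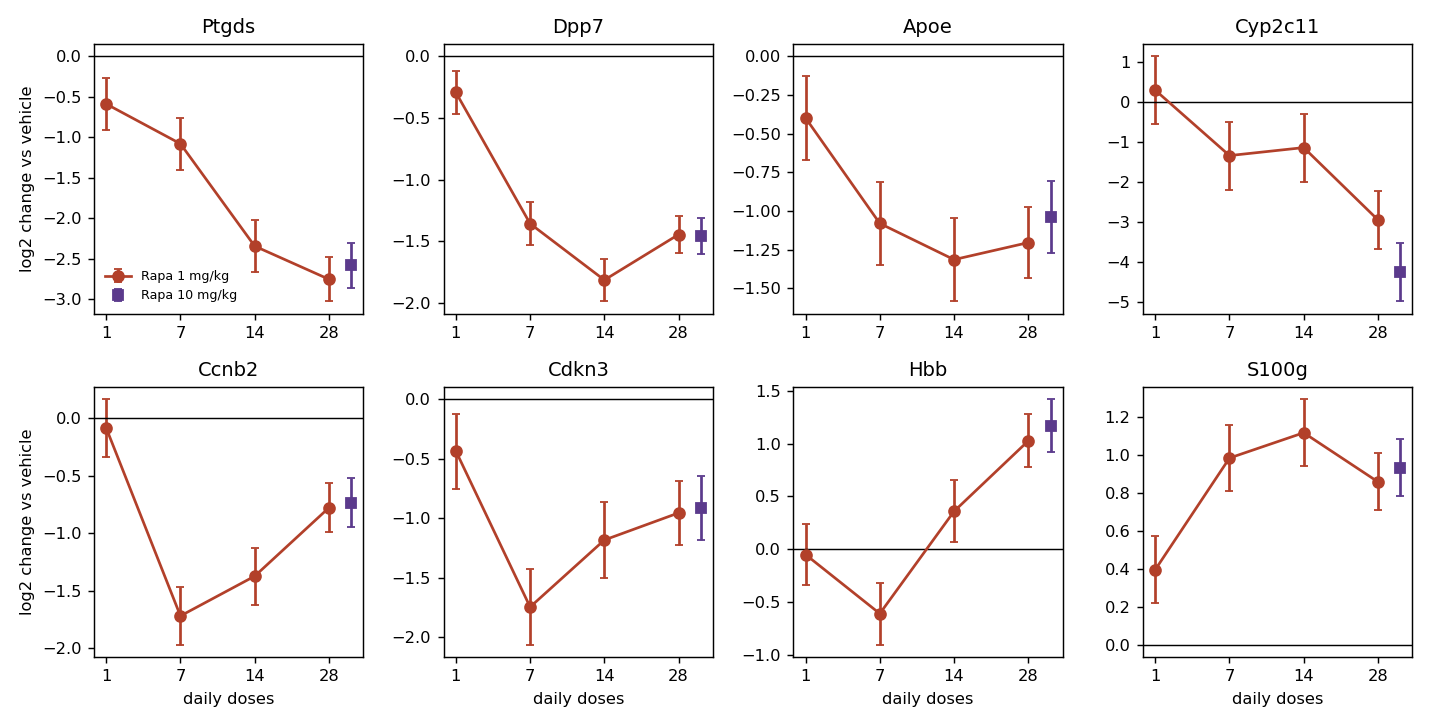
Log2 change against the vehicle rats of the same day for 8 genes, with 1 SE from the limma fit, after 1, 7, 14 and 28 daily doses of rapamycin at 1 mg/kg (circles, equally spaced) and after 28 doses at 10 mg/kg (squares). Ptgds reaches -2.75 at day 28, Dpp7, Apoe, Ccnb2, Cdkn3 and S100g are as far or farther from 0 at day 14 as at day 28, and Hbb is below 0 at day 7 and above it at day 28.

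Few genes had an effect at day 28 that differed from that at day 14 or 7. Against day 14 there were 46 (0.431%, limma), 21 with a higher (0.197%) and 25 with a lower effect (0.234%) at day 28, and 11 without replicate 4 (0.103%), all of them among the 46. The count was 30 and 23 without treated replicates 2 and 3, and 28, 8, 29 and 26 without vehicle replicates 1, 2, 3 and 5. With the Gapdh ratio as a covariate it was 10. Limd1, a LIM domain scaffold protein, averaged 7.87 in treated rats and 7.32 in vehicle rats at day 14, and 7.35 in treated rats and 8.12 in vehicle rats at day 28, so that its effect was lower at day 28 by 1.33 (adjusted p = 2.37e-05). Top1mt, the mitochondrial topoisomerase, and Rnf41, a ubiquitin ligase, had effects lower at day 28 by 1.34 and 1.70. For Rnf41 the treated means were 7.36 at day 14 and 7.28 at day 28, against vehicle means of 5.98 at day 14 and 7.60 at day 28, so the vehicle rats differed more between the days than the treated rats did. Top1mt showed the same layout, with treated means of 7.25 and 7.00 against vehicle means of 6.08 and 7.18. Hook3, a microtubule linker, had an effect lower by 1.04. Dnmt3a, a DNA methyltransferase, had an effect higher by 1.55, Ccdc127 by 1.25, Nipbl, the cohesin loader, by 0.87 and Ifitm1, an interferon-induced membrane protein, by 0.79. Without replicate 4 the calls of Ccdc127, Nipbl and Ifitm1 were lost (adjusted p = 0.061, 0.054 and 0.071).

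Against day 7 there were 39 genes (0.366%, limma), 13 higher (0.122%) and 26 lower (0.244%), and 17 without replicate 4 (0.159%), 16 of them among the 39. The count was 15 and 23 without vehicle replicates 1 and 4. With the Gapdh ratio as a covariate it was 29. Guca2a, the peptide guanylin, averaged 7.05 in treated rats and 7.61 in vehicle rats at day 7, and 8.0 in treated rats and 7.16 in vehicle rats at day 28, a difference of effects of 1.41 (adjusted p = 0.004). Csf2rb, the shared beta chain of receptors for myeloid growth factors, averaged 8.0 in treated rats and 7.49 in vehicle rats at day 7, and 8.05 in treated rats and 8.54 in vehicle rats at day 28, a difference of -1.0 (adjusted p = 0.0205). Rsu1, an adhesion complex protein, differed by -1.73 and Zbtb41, a zinc finger protein, by -1.42. Cdc25b, a mitotic phosphatase, differed by 1.26 and Cd14 by 0.99, and both calls were lost without replicate 4 (adjusted p = 0.079 and 0.12).

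The calcineurin inhibitors at their lower doses were measured against the same 5 vehicle rats at day 28, at other doses than rapamycin, so their values are only set side by side. FK506 at 0.6 mg/kg gave 462 called genes (4.33%), and CsA at 2.5 mg/kg gave 0 (0%) by limma with 425 genes at an unadjusted p under 0.05. The hybridization controls read 9.80 to 10.87 with FK506 and 10.53 to 11.06 with CsA, against 10.58 to 10.72 in the vehicle rats. Ptgds changed by -2.75 with rapamycin at 1 mg/kg, -0.14 with FK506 and -0.22 with CsA. Dpp7 changed by -1.45 with rapamycin, 0.23 with FK506 and -0.05 with CsA, and Apoe by -1.21, 0.47 and -0.03 in the same order of compounds. Dgkg changed by -1.36 with rapamycin, 0.01 with FK506 and 0.18 with CsA. Ccdc127 changed by 1.31 with rapamycin, 1.33 with FK506 and 0.51 with CsA, Cyp2c11 by -2.95, -2.68 and -1.89, and Gcgr by -1.30, -1.04 and -0.03 in that order.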

How the data were processed

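RNA from 120 rat kidneys had been hybridized to Affymetrix rat whole-genome arrays, 1 rat each. The deposited values are linear intensities of 31099 probe sets, and per the labels the arrays were read with GeneChip Operating Software. How probes were summarized and scaled is not given in the sources used here. The values were turned to log2(intensity + 16), quantile normalized and reduced to the probe set with the highest mean per gene (20826 probe sets named 1 gene, 436 several and 9780 none). The dimmest 25% of 14217 genes were left out. Levels of different genes are not comparable.

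limma 3.58.1 (R 4.3.3) was fitted to all 120 arrays in 28 groups (92 residual degrees of freedom), with Benjamini-Hochberg adjustment over 10663 genes and a threshold of 0.05. The p-values rest on a spread between rats pooled over all 28 groups, and the number of rats limits the precision. The treated rats were less alike (mean correlations of 0.968 to 0.978) than the vehicle rats (0.980 to 0.982), a difference that the pooled spread leaves out. No extraction or scan batch was labelled. The fit was tested on simulated data.

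The text names the 12 largest rises and 12 largest falls called with and without treated replicate 4, up to 4 genes a list called in both fits (2 where none was), the 8 genes highest and 8 lowest in replicate 4, and up to 4 called genes each way for the dose and day contrasts. The groups, the 49 gene lists (25 described) and the genes named were chosen with earlier results of these data known. Alternatives are given in the closing section.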

Additional observations from a re-analysis of the deposited data

Results flagged for a closer look

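Single arrays stood far from the rest of their group, by the gap to the next array over the group's range, in the values below, and chance alone marks about 1 in 20 groups. Treated replicate 4 was the highest treated rat in Lcn2 (11.15), Fgb (7.71), Eif4ebp3 (12.03) and Cd14 (8.31). It was the lowest in Tm4sf20 (4.70), Slco1a1 (8.60), Poteml2 (5.66), Gc (7.57), Pc (9.34) and Irx2 (6.91), and in its mean correlation with its own group (0.968). Of these, Lcn2, Fgb, Eif4ebp3, Tm4sf20, Slco1a1, Poteml2 and Gc had been picked for their distance in that rat, so their listing here follows from that choice and the chance rate does not apply to them. Treated replicate 1 was highest in Cyp2c11 (10.02), Alb (8.41) and Top1mt (7.32) and lowest in Arhgap5 (8.64) and Nipbl (8.82). Treated replicate 2 was highest in Rnf41 (7.79) and lowest in Gusb (7.50) and Pum2 (10.34), and treated replicate 6 was lowest in Rps3 (12.23). Among vehicle rats, replicate 2 was highest in Saa3 (6.96) and Dgkg (10.90), replicate 3 in Sds (9.07) and replicate 5 in Hsd11b2 (11.49). Replicate 5 was the lowest vehicle rat in Slco1a1 (11.44) and Slc17a5 (10.04), replicate 1 in Glb1 (11.29) and replicate 4 in Rnf41 (7.11).

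The effect of rapamycin at 1 mg/kg differed between days by the limma contrast of the effects themselves. The effect at day 28 minus that at day 14 was 1.55 for Dnmt3a, 1.25 for Ccdc127, 0.87 for Nipbl, 0.79 for Ifitm1, -1.70 for Rnf41, -1.34 for Top1mt, -1.33 for Limd1, -1.04 for Hook3 and -0.70 for Slc22a5. The effect at day 28 minus that at day 7 was 1.64 for Hbb, 1.41 for Guca2a, 1.26 for Cdc25b, 0.99 for Cd14, -1.73 for Rsu1, -1.67 for Ptgds, -1.42 for Zbtb41, -1.0 for Csf2rb and -0.95 for Limd1. The part of the hybridization controls and of replicate 4 in these differences was not tested beyond the counts given for those settings.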

How the results depend on the processing

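No paired analysis was possible because the replicate numbers only follow the order of deposit and the labels tie no treated rat to a vehicle rat. Each alternative changed 1 choice, and leaving out treated replicates 2 and 4 together, or joining the removal of replicate 4 to another choice, was chosen after seeing the data. The 1050 genes called at day 28 became 699 to 1147 with 1 array left out, 634 with day 28 arrays alone, 278 with the 11 arrays alone, 563 with the hybridization controls as a covariate and 590 without treated replicates 2 and 4. They became 258 with the 11 arrays alone and no replicate 4, and 562 with the hybridization controls and no replicate 4. The 13 genes between the doses became 0 to 32 with 1 array left out, 1 without quantile normalization, without the filter on dim genes or with all probe sets apart, 0 with day 28 arrays alone or the hybridization controls, 3 with array weights, 4 without replicates 2 and 4, and 2 with the hybridization controls and no replicate 4. The 46 genes of day 28 against day 14 became 8 to 50 with 1 array left out, 16 without quantile normalization, 13 without the filter, 88 with all probe sets apart, 8 with the hybridization controls, 10 with the ratio of 3-prime to 5-prime Gapdh signal as a covariate, 7 without replicates 2 and 4, and 7 with the hybridization controls and no replicate 4. The 39 genes of day 28 against day 7 became 15 to 44 with 1 array left out, 23 without quantile normalization, 22 without the filter, 98 with all probe sets apart, 8 with the hybridization controls, 6 without replicates 2 and 4, and 8 with the hybridization controls and no replicate 4. The 450 genes of day 7 became 798 with all probe sets apart and 224 with the Gapdh ratio, and the 328 of day 1 became 652 with all probe sets apart, 723 with array weights and 48 with the Gapdh ratio. The fits to fewer arrays have fewer residual degrees of freedom and estimate the spread from those arrays alone. What caused any of these changes in count was not tested. The 1677 genes at 10 mg/kg stayed between 1329 and 1721 with 1 array left out. Of 122 named results, 92 were called, of which 38 were lost with the 11 arrays alone, 26 with the hybridization controls as a covariate and 4 without replicate 4. Most of the called genes were named because they were called with and without replicate 4, so the 4 largely follows from that choice. Of all 1050 called genes, 356 were not called without replicate 4. None of the 92 changed sign among the alternatives run, while Fgb, Cxcl13, Slco1a1, Dhcr7 and Pum2, which were not called, did. Dim genes near the offset have understated changes.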
